A study of Mus musculus with 5 samples.

Results

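The globins are the protein chains of haemoglobin, and 8 genes of this family and its partners are described: the embryonic globins Hbb-bh1, Hba-x and Hbb-y, the adult globins Hbb-b1, Hbb-b2, Hba-a1 and Hba-a2, and Ahsp. Every probe set that the platform annotation assigned to one of them was used, shared probe sets included, which gave 15 probe sets for 7 of the 8 genes among 45037 on the array. A probe set is a group of short probes that together read 1 transcript, or several similar ones where it is shared. No probe set was named for Ahsp, which is not analysed here. RNA came from long-term haematopoietic stem cells (LT-HSCs) of 4-week-old C57BL/6 mice, 1 array for each of 2 controls and 3 Lrf knockouts. All mice carried Cre recombinase under the interferon-inducible Mx1 promoter and received 2 injections of 250 µg pIpC, a double-stranded RNA analogue that switches this promoter on. Controls were Zbtb7a Flox/+ Mx1-Cre+ and so kept 1 intact allele of Zbtb7a, which encodes the repressor LRF, while knockouts were Zbtb7a Flox/Flox Mx1-Cre+. The sort, on day 9 from the first injection, took CD150-positive, CD48-negative cells of the lineage-negative Sca-1 and Kit double-positive compartment that also lacked Flt3 and IL7Ra. The Mx1 promoter responds to interferon in many cell types, so deletion in these mice need not be limited to stem cells. The description of knockout replicate 3 carries 2 animal numbers, and whether its cells were pooled is not stated.

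Haemoglobin is a tetramer of alpha-like and beta-like chains, whose genes lie in separate clusters on different chromosomes. Primitive red cells of the early embryo use Hba-x (zeta) with Hbb-y (epsilon-y) and Hbb-bh1 (beta-H1). Definitive red cells silence these genes and use the adult chains instead, and LRF is known as a repressor of the fetal beta-like globins in human adult red cells. Stem cells are not known for making haemoglobin. In the RefSeq order the beta cluster runs Hbb-bt, Hbb-bs, Hbb-bh2, Hbb-bh1 and Hbb-y, and the alpha cluster runs Hba-x, Hba-a1, Hbq1b, Hba-a2 and Hbq1a. Hbb-b1 and Hbb-b2 are the adult genes of another haplotype, and C57BL/6 mice carry Hbb-bs and Hbb-bt in their place. The adult beta probe set was annotated to all 4 of these genes and the bright alpha probe sets to both Hba-a1 and Hba-a2, so single adult genes could not be told apart.

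The sequences just upstream of 4 transcription start sites are shown because these genes read so differently in the same cells: Hba-x was higher in each knockout array, its embryonic beta-like counterpart Hbb-y was dim, and the adult Hba-a1 and Hbb-bs belong to the transcripts whose groups overlapped. Each is the 250 bases before the start from RefSeq (GRCm38.p6), 5′ to 3′ on the strand of the gene. Capitals mark the letters CACCC (the core bound by Krüppel-like factors), the promoter box CCAAT, the letters TATAA of a TATA box, the letters GATAA read by GATA factors, and also GGGCC, each searched on both strands, with matches allowed to overlap.
Hba-x, chr11:32276350-32276599, plus strand: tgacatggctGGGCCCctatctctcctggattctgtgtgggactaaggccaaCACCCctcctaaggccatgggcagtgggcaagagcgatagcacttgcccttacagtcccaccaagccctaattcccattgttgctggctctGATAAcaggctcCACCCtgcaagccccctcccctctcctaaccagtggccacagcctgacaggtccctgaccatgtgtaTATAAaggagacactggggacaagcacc
Hbb-y, chr7:103853208-103853457, minus strand: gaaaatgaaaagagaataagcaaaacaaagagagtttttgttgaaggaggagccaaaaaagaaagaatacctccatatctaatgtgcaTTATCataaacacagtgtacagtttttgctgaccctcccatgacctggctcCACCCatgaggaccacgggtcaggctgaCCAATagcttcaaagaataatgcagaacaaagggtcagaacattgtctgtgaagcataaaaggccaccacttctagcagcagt
Hba-a1, chr11:32283422-32283671, plus strand: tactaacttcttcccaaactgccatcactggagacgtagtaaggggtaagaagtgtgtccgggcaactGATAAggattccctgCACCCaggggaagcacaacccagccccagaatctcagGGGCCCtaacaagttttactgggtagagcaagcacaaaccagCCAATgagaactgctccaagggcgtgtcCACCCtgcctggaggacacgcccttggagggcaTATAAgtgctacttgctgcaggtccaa
Hbb-bs, chr7:103827929-103828178, minus strand: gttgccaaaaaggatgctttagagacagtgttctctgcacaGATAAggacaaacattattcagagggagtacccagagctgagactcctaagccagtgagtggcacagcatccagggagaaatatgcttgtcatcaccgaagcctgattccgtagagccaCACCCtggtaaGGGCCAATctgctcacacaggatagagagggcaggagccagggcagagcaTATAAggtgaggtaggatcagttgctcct

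All 4 windows held CACCC, at 198 and 95 bases before the start in Hba-x, 111 in Hbb-y, 167 and 60 in Hba-a1 and 90 in Hbb-bs. GATAA was also present in each, on the opposite strand in Hbb-y. CCAAT lay 83, 88 and 76 bases before the start of Hbb-y, Hba-a1 and Hbb-bs and was not found in the window of Hba-x, and TATAA lay 27 to 29 bases before the start of Hba-x, Hba-a1 and Hbb-bs and was not found in that of Hbb-y. GGGCC was present in all but Hbb-y. In the same windows of all 32851 RefSeq promoters, CACCC occurred in 52%, CCAAT in 33.8%, TATAA in 22.8%, GATAA in 22.6% and GGGCC in 44.9%. Such short matches are common and are given as a description of the sequence alone.

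Values are log2 intensities after RMA, the authors' normalization, so 1 unit is a doubling. A mean below 5.77, the level that the dimmest 40% of probe sets do not reach, is taken as near background. Array medians lay at 6.38 to 6.40, and the brightest value on an array was 15.19 to 15.29. Of the 5 arrays, knockout replicate 2 was the least like the rest: it correlated with the other arrays at 0.945 to 0.970 across all probe sets, against 0.977 to 0.990 among the others, and its Actb 3′ minus 5′ difference was 3.85 against 4.90 to 5.21. The brightest of 3 probe sets of Zbtb7a, the targeted gene, averaged 8.29 ± 0.10 (SD, n = 2) in the control mice. Its knockout average was 8.70 ± 0.37 (SD, n = 3; exact permutation p = 0.3, two-sided), and it is not known here whether these probes lie in the deleted part. The next probe set of Zbtb7a averaged 8.42 in controls and 8.06 in knockouts, a difference of -0.36 (exact permutation p = 0.4), and the dimmest differed by -0.054 (p = 0.8 in the same exact test), so the 3 did not point one way. Of the stem cell markers, 13 had a probe set of their own, all 13 passed the filter on dim values, and all 13 had lower means in knockouts. Their summed log2 level was 125.8 and 138.6 in controls and 129.4, 101.4 and 132.8 in knockout replicates 1, 2 and 3. Leaving out knockout replicate 2, their median difference was -0.070, 3 of the 13 had positive differences, and no marker separated the groups. Differences of the brightest tested globin probe sets, and medians and counts of most gene lists, are therefore also given without knockout replicate 2.

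Hbb-bh1, an embryonic beta-like chain, was at or near background in controls and brighter in every knockout. On its brightest probe set (1437990_x_at) it read 6.23 and 5.19 in control replicates 1 and 2 and 10.11, 13.97 and 11.26 in knockout replicates 1, 2 and 3. The groups did not overlap, and the lowest knockout stood 3.89 log2 units above the higher control. The knockout mean of 11.78 ± 1.98 (SD, n = 3) exceeded the control mean of 5.71 ± 0.73 (SD, n = 2) by 6.07 (SE 1.23; limma unadjusted p = 0.00509, adjusted p = 1), a difference whose size is uncertain because the control mean itself lies below 5.77. With control replicate 2 set to 5.77 it was 5.78. Without knockout replicate 2 it was 4.98 (SE 0.57), the lowest of the values obtained as single arrays were left out, which reached 6.90 without knockout replicate 1. Within the array, Hbb-bh1 moved from rank 23791 of 45037 in control replicate 1 to rank 93 in knockout replicate 2 and rank 4344 in knockout replicate 1.

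The other Hbb-bh1 probe sets gave the same order of arrays. Probe set 1437810_a_at read 6.24 and 5.55 in controls and 9.93, 13.90 and 10.94 in knockouts, a difference of 5.70 (SE 1.25). Probe set 1450736_a_at was dimmer, at 5.24 and 4.60 in controls, both near background, and 6.83, 11.41 and 7.86 in knockouts, a difference of 3.78 (SE 1.45). In both, knockout replicate 2 was the brightest array and both controls were the dimmest.

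Hba-x, the embryonic alpha-like chain, has 1 probe set (1448716_at). It read 7.23 and 6.78 in controls and 9.55, 12.09 and 11.12 in knockout replicates 1, 2 and 3. Again no knockout overlapped the controls, and the gap between the groups was 2.32. The difference of 3.92 (SE 0.79; limma unadjusted p = 0.00497, adjusted p = 1) was 3.33 without knockout replicate 2 and 4.60 without knockout replicate 1. Among 27022 probe sets tested, the 4 of Hbb-bh1 and Hba-x had the 4 largest positive differences, and the next, of the heat shock gene Hspa1b, was 3.42 (SE 1.83). Of these 4, 2 entered the tested set only through their knockout values, and the members were chosen with earlier results known. This ranking is therefore a description.

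Hbb-y, the other embryonic beta-like chain and the neighbour of Hbb-bh1 in the cluster, did not share this pattern. Its brightest probe set read 4.66 in both controls and 4.71, 5.10 and 4.52 in knockouts, all near background. The remaining Hbb-y probe sets read 3.52 to 4.77 over all 5 arrays. In a fit without the filter on dim probe sets the 3 differences were 0.12, 0.12 and 0.29, with SEs of 0.20, 0.29 and 0.34, and the groups overlapped on each. A transcript at this level has no measurable difference, so these values bound nothing below background.

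**Figure D1:**
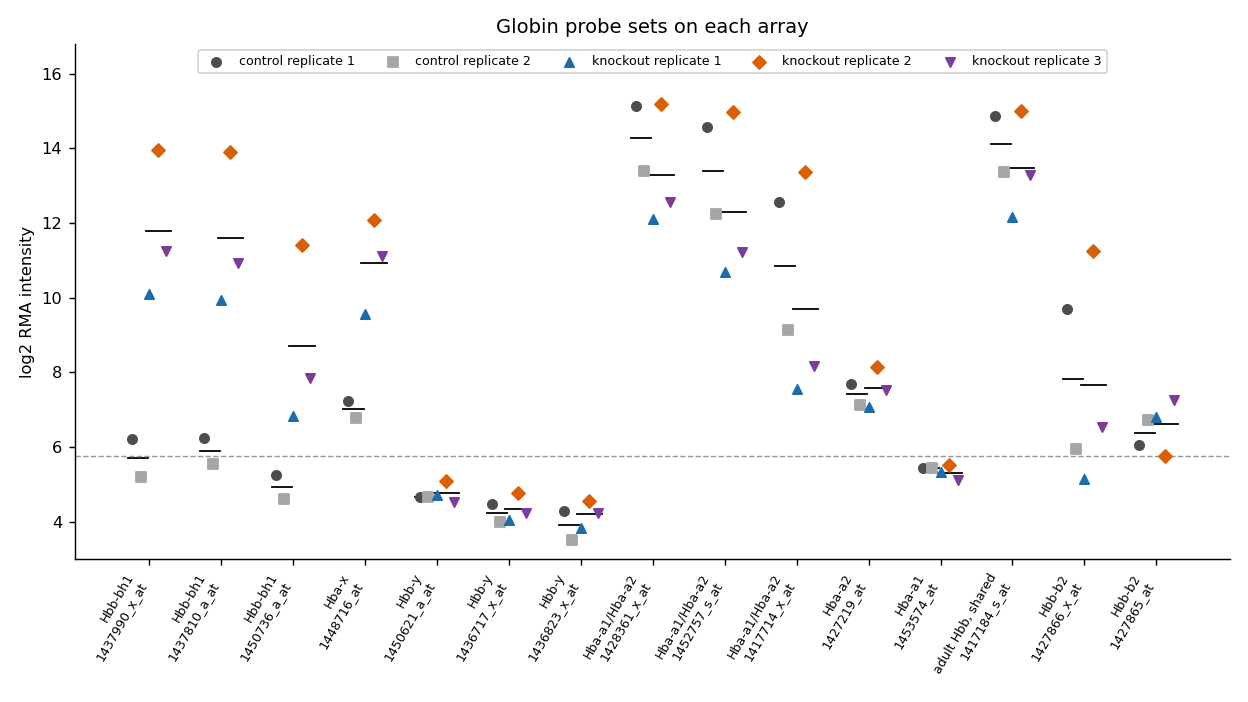
Each point is the log2 RMA intensity of 1 globin probe set on 1 array, with control and knockout means as short lines and the level of 5.77 dashed. The 4 probe sets of Hbb-bh1 and Hba-x are higher in all 3 knockouts than in both controls, those of Hbb-y lie below the dashed line, and the bright adult probe sets mix the groups.

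Of the 15 globin probe sets, 11 passed the filter on dim values, and the 3 of Hbb-y and 1 of Hba-a1 did not. Of these, 2 probe sets of Hbb-bh1 (1437990_x_at and 1450736_a_at) had control means below the filter level and passed only through their knockout values, so counts over the 11 are a description. Every knockout exceeded both controls on 4 of the 11 (3.61% of all 27022 probe sets), and none of the 11 was lower in every knockout (4.34% of all). Over all 15 globin probe sets with no filter, an alternative added after the data were seen, the count was 4 of 15 (3.61% of all 45037 probe sets), none was lower (3.52% of all), and 3 had an unadjusted p under 0.05 (1.4% of all). Without knockout replicate 2, 5 of the 11 were higher (14.3% of all), the added one being the dim Hbb-b2 probe set 1427865_at. No globin probe set passed limma's test (0 of 27022 probe sets had an adjusted p under 0.05, or 0%), and 3 of the 11 had an unadjusted p under 0.05 (1.13% of all). Without control replicate 2, which leaves 1 control, the differences were 5.55 for the brightest Hbb-bh1 probe set and 3.69 for Hba-x. With 2 and 3 arrays, exact permutation tests have 10 splits and cannot go below p = 0.1. That smallest p was reached by the brightest probe sets of Hbb-bh1 and Hba-x (0.175 after Benjamini-Hochberg adjustment over a family of 7 such tests). Of the other Hbb-bh1 probe sets, 1437810_a_at had an exact permutation p of 0.1 and 1450736_a_at of 0.2 (limma unadjusted p = 0.0509). The brightest, 1437990_x_at, was picked by its mean over all arrays and passed the filter only through its knockout values. P-values from it, anywhere in this text, are therefore a description.

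Adult alpha globin was among the brightest transcripts of these sorted cells, and over all 5 arrays its groups overlapped. The brightest shared probe set of Hba-a1 and Hba-a2 (1428361_x_at) read 15.13 and 13.41 in control replicates 1 and 2 and 12.10, 15.19 and 12.56 in knockout replicates 1, 2 and 3. It was the brightest of all 45037 probe sets in knockout replicate 2 and ranked 2 in control replicate 1, so these arrays lay at the top of the measurable range. The groups overlapped fully in range, since the highest and lowest arrays were both knockouts. The difference was -0.98 (SE 1.13; exact permutation p = 0.6), and it was -0.12 without control replicate 1. Without knockout replicate 2 both remaining knockouts lay below both controls, with a difference of -1.94 (SE 0.66; limma unadjusted p = 0.0452, adjusted p = 0.953). With array weights, which let arrays unlike the rest count less, the difference was -2.04 (SE 0.70; limma unadjusted p = 0.0337, adjusted p = 0.856). The weights were 0.79 for each control and 7.67, 0.20 and 1.03 for knockout replicates 1, 2 and 3. All values with array weights thus rest mostly on knockout replicate 1, here the dimmest array.

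The less bright alpha probe sets ordered the arrays in the same way and spread them farther apart. Probe set 1452757_s_at read 14.58 and 12.24 in controls and 10.69, 14.97 and 11.22 in knockouts, a range of 4.28 against 3.09 for the brightest. Probe set 1417714_x_at read 12.57 and 9.14 in controls and 7.57, 13.37 and 8.18 in knockouts, a range of 5.80. Of the 3 shared probe sets, the brightest showed the smallest spread between arrays. The less bright ones, in the order given, differed by -1.12 (SE 1.56) and -1.15 (SE 2.16). Without knockout replicate 2 these differences were -2.46 (SE 0.88) and -2.99 (SE 1.27), and without control replicate 2 they were -2.29 and -2.87. They turned positive without control replicate 1, at 0.053 and 0.56. The probe set annotated to Hba-a2 alone was much dimmer, at 7.08 to 8.13 over all arrays, and that of Hba-a1 alone lay near background at 5.11 to 5.51.

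Adult beta globin ordered the 5 arrays exactly as adult alpha globin did. The shared probe set (1417184_s_at) read 14.88 and 13.38 in controls and 12.17, 15.02 and 13.28 in knockouts. Control replicate 1 and knockout replicate 2 were again the bright arrays, and knockout replicate 1 was the dimmest. The difference was -0.64 (SE 0.97; exact permutation p = 0.7). It was -1.76 with array weights and -1.40 without knockout replicate 2, and turned to 0.11 without control replicate 1 and 0.020 without knockout replicate 1. One of the 2 probe sets annotated to Hbb-b2 alone, 1427866_x_at, was bright on these same arrays and dimmest in knockout replicate 1, reading 9.69 and 5.94 in controls and 5.15, 11.26 and 6.54 in knockouts. The other, 1427865_at, read 6.05 and 6.71 in controls and 6.80, 5.76 and 7.26 in knockouts, with its lowest values on the arrays where the first was highest. Probe sets whose names contain _x_at can hold probes that match similar transcripts.

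**Figure D2:**
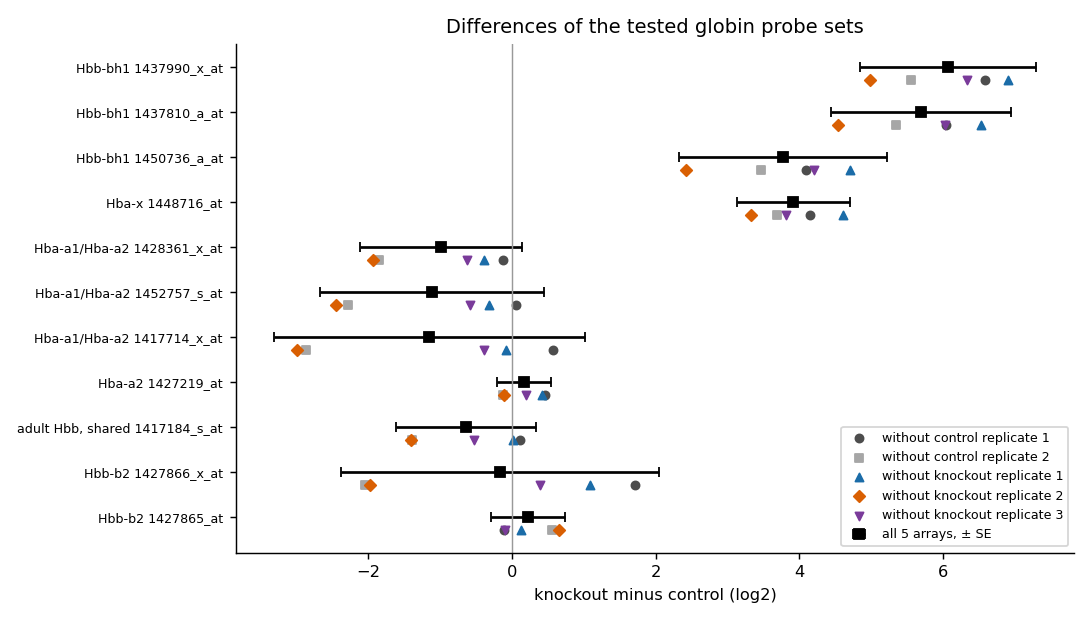
Squares are log2 differences, knockout minus control, of the 11 tested globin probe sets with their SE from limma, and coloured symbols are the differences when 1 array is left out. The probe sets of Hbb-bh1 and Hba-x stay between 2.42 and 6.90, while those of the adult genes cross 0 or reach it within their SE.

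Embryonic and adult globin levels were next set against each other within each array. Among knockouts both ranked in the order replicate 2, replicate 3, replicate 1, and control replicate 1 exceeded control replicate 2 for both. Control replicate 1 and knockout replicate 2 read 14.88 and 15.02 for adult beta globin, near the top of the range, and 6.23 and 13.97 for Hbb-bh1. Likewise control replicate 2 and knockout replicate 3 read 13.38 and 13.28 for adult beta globin and 5.19 and 11.26 for Hbb-bh1. On less bright adult probe sets control replicate 1 and knockout replicate 2 lay farther apart, at 12.57 and 13.37 (1417714_x_at) and at 9.69 and 11.26 (1427866_x_at). The Hbb-bh1 probe set was dim on control replicate 1, where adult beta globin was bright, and the cause was not tested.

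Hbb-bh1 minus adult beta globin, as a difference of log2 values within an array, was -8.65 and -8.18 in controls and -2.06, -1.05 and -2.01 in knockouts. Their SD was 0.57 in knockouts and 0.33 in controls, against 1.98 and 0.73 for Hbb-bh1 alone. The group means differed by 6.71 (exact two-sided permutation p = 0.1, the smallest possible; 0.175 after adjustment over the family of 7), and by 6.38 to 6.94 as single arrays were left out. Hba-x minus adult alpha globin was -7.90 and -6.63 in controls and -2.55, -3.10 and -1.44 in knockouts. The means differed by 4.90 (exact permutation p = 0.1, adjusted 0.175), with a range of 4.27 to 5.53 without single arrays. Here the SD was 0.85 in knockouts, against 1.28 for Hba-x alone, but 0.90 in controls, against 0.32. A difference between 2 probe sets shows unequal change between the groups and not which transcript is more abundant.

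Other choices among the bright adult probe sets gave the same direction. Each of the 4 embryonic probe sets was set against each of the 4 adult ones with a mean above 8.5, which gave 16 pairs on the same arrays. In 16 of 16 the knockouts lay above both controls, with differences of 4.41 to 7.22. The level of 8.5 was not among the choices made in advance, and it left out the dimmer adult probe sets. Among these was the Hbb-b2 probe set 1427866_x_at, at 11.26 in knockout replicate 2 and 5.94 in control replicate 2. Hba-x read 12.09 and 6.78 on these arrays, so for that pair the groups overlapped slightly. With the level of adult alpha globin as a covariate in limma, an alternative added after the data were seen, the Hbb-bh1 difference was 7.11 (SE 0.38; limma unadjusted p = 2.1e-05, adjusted p = 0.175) and that of Hba-x was 4.49 (SE 0.49; adjusted p = 0.175). No probe set was called in that fit (0%), while 16.6% of all had an unadjusted p under 0.05, so the small p-values of the globins stand among many others.

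**Figure D3:**
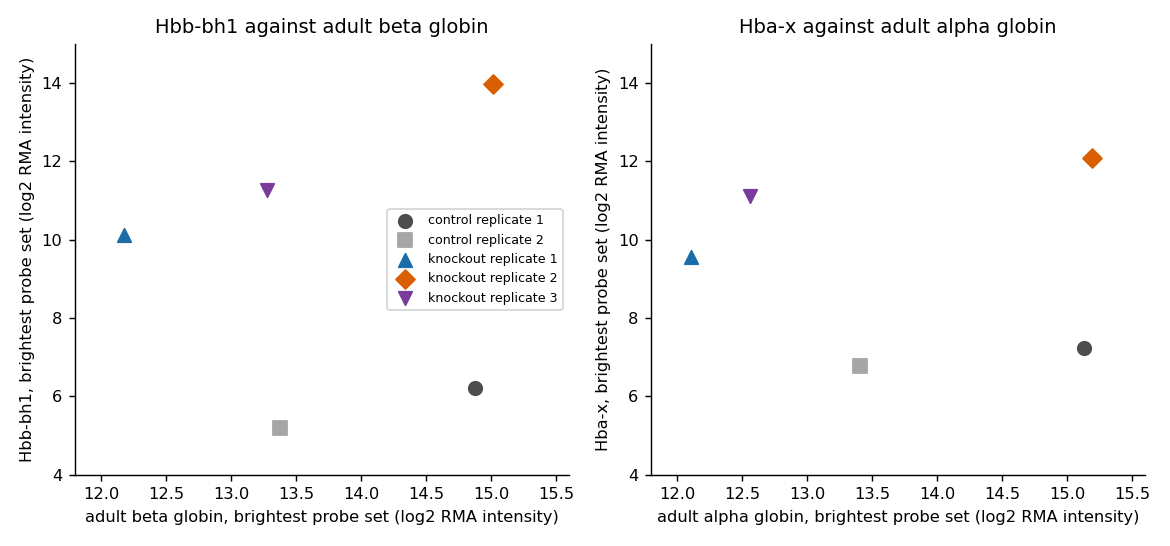
Each point is 1 array, with the log2 intensity of the brightest adult probe set on the horizontal axis and that of Hbb-bh1 (left) or Hba-x (right) on the vertical axis. Controls lie at or below 7.23 in both panels, and the knockouts lie between 9.55 and 13.97.

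Genes of the red cell that act beside globin were examined as fixed lists, each gene by its brightest probe set. Of 14 haem synthesis genes tested, 9 had positive and 5 negative differences, and the median was 0.15 (-0.030 over all 12813 genes). None separated the groups (2.68% of all genes were higher and 4.50% lower in every knockout). Without knockout replicate 2 the median was -0.017, with 6 positive and 8 negative. In that setting 1 of the 14 (7.14%) was lower in both remaining knockouts, against 13.5% of all genes. Over all 5 arrays the smallest p-values were those of Tmem14c, a mitochondrial porphyrin transporter (0.36, SE 0.32), Cpox, a coproporphyrinogen oxidase (0.52, SE 0.48) and Flvcr1, a haem exporter (0.17, SE 0.22). The brightest member was Urod, a uroporphyrinogen decarboxylase (-0.063, SE 0.34). Of 33 genes for red cell membrane, enzymes and receptors, 23 were positive and 10 negative, and none separated the groups. Without knockout replicate 2, 19 were positive and 14 negative. In that setting 1 of the 33 (3.03%) was higher in both remaining knockouts, against 13.9% of all genes. The list median was 0.16 over all 5 arrays, but 0.040 without knockout replicate 2, 0.86 without control replicate 1 and -0.55 without control replicate 2. Tspo2, a membrane protein of erythroblasts, had a difference of 0.74 (SE 0.53), the transferrin receptor Tfrc 0.59 (SE 0.44), Xk 0.28 (SE 0.20) and the brightest, carbonic anhydrase Car2, 0.26 (SE 0.25).

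Single red cell genes differed in how far they shared the array pattern of the adult globins. The following were chosen for their roles after their values were seen. Alas2, the erythroid enzyme that starts haem synthesis, read 11.75 and 7.72 in controls and 6.71, 12.89 and 7.88 in knockouts. Slc4a1, the band 3 anion exchanger, read 13.63 and 10.34 in controls and 9.03, 13.54 and 11.82 in knockouts. Both were bright in control replicate 1 and knockout replicate 2, as the adult globins were. Klf1, the erythroid Krüppel-like factor, read 12.70 and 11.04 in controls and 12.19, 11.91 and 12.35 in knockouts, and Car1, an erythroid carbonic anhydrase, read 12.67 and 11.58 in controls and 13.42, 11.22 and 12.45 in knockouts. Klf1 was dimmest in control replicate 2 and Car1 in knockout replicate 2, so neither had its low point in knockout replicate 1 as the adult globins did.

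Of the factors that act on the globin clusters, none passed limma's test. Of 34 transcription and switching factors tested, 16 were positive and 18 negative, with a median of -0.030, and none was higher in every knockout. In 3 (8.82%, against 4.50% of all genes) every knockout was lower: Tal1, a factor of blood formation (-0.42, SE 0.23), the methyltransferase Dnmt1 (-0.47, SE 0.26) and the orphan receptor gene Nr2c2. Without knockout replicate 2 the median was 0.039, 7 were higher and 4 lower, against 13.9% and 13.5% of all genes. Nr2c1, the partner of Nr2c2, differed by -0.58 (SE 0.34) and Myb, the brightest, by 0.048 (SE 0.31). Bcl11a, a main repressor of fetal globin and chosen for that role after its values were seen, read 11.13 and 11.36 in controls and 11.72, 10.12 and 11.77 in knockouts, a difference of -0.044 (SE 0.58) that was 0.50 (SE 0.15) without knockout replicate 2. Other globin-fold genes were represented by Mb, myoglobin (0.088, SE 0.16), and Ngb, neuroglobin (-0.026, SE 0.18), and their groups overlapped.

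The tested genes next to the alpha cluster did not share the embryonic pattern. Of the 8 protein-coding genes on each side of the alpha cluster 11 were tested, with differences of -0.50 to 0.26. The groups overlapped for 10 of these 11, among them Nprl3 (-0.025, SE 0.16), whose introns hold alpha globin enhancers, and Mpg (-0.12, SE 0.18), a DNA glycosylase. None of the 11 was higher in every knockout (2.68% of all genes), and 1, Fbxw11, was lower (4.50% of all genes), by 0.22 (SE 0.14). Around the beta cluster lie olfactory receptor genes, and of the 16 nearest only 1 was tested, Olfr64 (0.096, SE 0.19).

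Markers of other cells varied between the arrays as well, and in these bulk samples fewer cells of a type and less RNA per cell cannot be told apart. Of 10 neutrophil genes 8 had negative and 2 positive differences, none separated the groups, and the median was -0.44. When knockout replicate 2 was left out, all 10 were negative, 5 were lower in both remaining knockouts (13.5% of all genes), and the median was -1.21. Relative to the mean of all arrays their median was 0.90 and -0.19 in controls and -1.47, 1.22 and -0.30 in knockout replicates 1, 2 and 3. Adult beta globin, centred in the same way, was 1.13 and -0.36 in controls and -1.57, 1.27 and -0.47 in knockouts, the same order of arrays. The summed log2 level of the neutrophil genes was 134.4 and 121.3 in controls and 108.2 to 141.0 in knockouts. S100a8, the brightest of them and a calcium-binding protein of granulocytes, read 15.09 and 14.43 in controls and 13.51, 15.11 and 14.46 in knockouts. Ltf, the granule protein lactoferrin (-1.08, SE 1.30), Lcn2, a granule siderophore-binding protein (-1.05, SE 1.31), and Ngp, a neutrophil granule protein (-0.64, SE 0.72), were bright on the same arrays. Whether such cells contributed to the globin signal was not tested.

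Macrophages engulf red cells and their nuclei, and most of their genes read lower in knockouts. Of 16 macrophage genes, 11 (68.8%) were lower in every knockout, against 4.50% of all genes, and the median was -1.79. The count was 13 without knockout replicate 2 (13.5% of all genes), and the median was -1.38. Axl, a receptor for dying cells, was lower by 2.31 (SE 0.55), Vcam1, an adhesion molecule of erythroblastic islands, by 1.71 (SE 0.64), and the scavenger receptor for haemoglobin, Cd163, by 3.09 (SE 0.90), none with an adjusted p below 1. Their summed log2 level was 165.2 and 151.3 in controls and 128.8, 129.3 and 147.0 in knockouts. Knockout replicates 1 and 2 had the lowest of these levels, and they had the least and the most adult globin of all arrays. Among 12 genes that handle free haemoglobin and haem, 4 (33.3%, against 4.50% of all genes) were lower in every knockout, and the median was -0.57. These were Cd163, Spic (-1.07, SE 0.27), the biliverdin reductase Blvra (-0.76, SE 0.24) and the iron exporter Slc40a1. Cd163 and Spic are also among the macrophage genes counted above. With knockout replicate 2 left out, 6 of the 12 were lower (13.5% of all genes) and the median was -0.86. The brightest, ferritin heavy chain Fth1, differed by -0.15 (SE 0.22). Their part in the globin result was not tested.

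Of the remaining lists, 4 of 8 platelet and megakaryocyte genes (50%, against 4.50% of all genes) were lower in every knockout, with a median of -0.35, which was -0.15 without knockout replicate 2. Among them were the platelet receptor subunits Gp9 (-0.36, SE 0.16) and Gp1bb (-0.58, SE 0.23) and the integrin Itga2b (-0.64, SE 0.51), and the chemokine Pf4 differed by -0.67 (SE 0.76). All 8 B cell genes had positive differences (median 0.44) without separating the groups. Without knockout replicate 2, however, the median was -0.32, 7 of the 8 were negative and 5 were lower in both remaining knockouts (13.5% of all genes). Their summed log2 level was 77.5 in knockout replicate 2 and 56.2 to 61.2 on the other arrays. Only 4 of 8 T cell genes on the array passed the filter, with a median of 0.18, or -0.19 without knockout replicate 2. Of the proteins that the sort excluded, the Il7r transcript was higher in every knockout (6.21 and 7.30 in controls, 9.35, 10.50 and 7.44 in knockouts), Cd48 differed by 0.73 (SE 0.58) and Flt3 by -0.38 (SE 0.40). Among the stem cell markers Vwf differed by -1.27 (SE 0.89), Hlf by -1.20 (SE 0.79), Slamf1 by -0.86 (SE 0.76) and the brightest, Hoxa9, by -0.85 (SE 0.87). The values without knockout replicate 2 were -0.47, -0.56, -0.23 and -0.070.

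**Figure D4:**
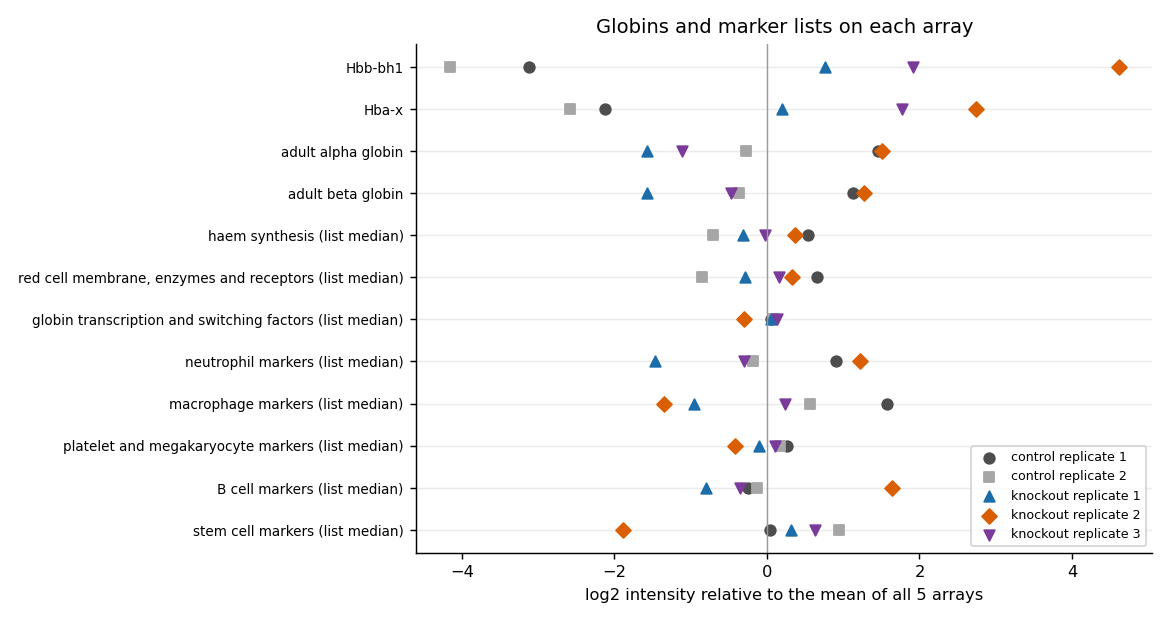
Each point is 1 array, showing the log2 intensity of a globin, or the median over a list of genes, relative to the mean of all 5 arrays. Adult globins and neutrophil markers order the arrays alike, with control replicate 1 and knockout replicate 2 high, whereas Hbb-bh1 and Hba-x are low in both controls and high in all 3 knockouts.

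The genes most like each globin across the arrays were found by the root mean square difference of profiles centred on their means. For Hbb-bh1 the closest profile among those of the globins was that of Hba-x, at 1.22. The closest other genes lay farther off, from Mcpt8, a basophil protease (1.997), and Ifi202b, an interferon-inducible gene (2.06), over Hspa1a, Klrd1 and Jchain to 2.15, against a median of 3.28 over all genes. For Hba-x the closest other genes were Ifi202b (1.01), Rag1, a recombinase of lymphocyte precursors (1.17), Gadd45a (1.30), Mcpt8 (1.35) and Nfkbiz (1.36). Ifi202b and Rag1 thus lay closer to Hba-x than Hbb-bh1 did (1.22). Rag1 read 6.93 and 6.86 in controls and 9.40, 9.87 and 8.38 in knockouts.

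The adult globins had far closer companions. For adult beta globin these were Sqor, a sulfide oxidoreductase (0.064), the phosphatase Cdc25b (0.075), Anxa1, an annexin of granulocytes (0.13), Ckap4 (0.13) and Rasl11b (0.13), against a median of 1.12. For adult alpha globin they were Hk3, a hexokinase of myeloid cells (0.21), Ncf4, a subunit of the phagocyte oxidase (0.22), Apobr (0.24), Gch1 (0.25) and Card10 (0.25), against 0.34 for adult beta globin itself. These likenesses rest on 5 arrays and describe a shared order of bright and dim arrays.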

How the data were processed

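The authors deposited log2 intensities, with 1 value for each probe set on each array. Per the submitters' processing notes these came from RMA, run in Affymetrix Expression Console (version and genome build: not given in the sources used). Per the labels' protocols, RNA was amplified and biotinylated through 2 rounds of T7 transcription, which favours the 3′ ends of transcripts. RMA forces all arrays to one distribution and compresses the brightest and dimmest values.

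Of 45101 rows, 64 control probe sets were left out, as was the dimmest 40% of the rest by mean over all arrays (below 5.77), which left 27022. The groups were compared with limma 3.58.1 (R 4.3.3) by lmFit and eBayes without covariates; two-sided p-values were adjusted by Benjamini-Hochberg over all probe sets tested (threshold 0.05). The fit was tested on simulated data first. SEs are moderated. Single values had exact two-sided permutation tests over samples. The number of arrays limits the precision.

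The annotation gave 34945 probe sets 1 symbol, 932 several and 9160 none. A gene was read by its brightest probe set, the adult globins by their brightest shared one. List genes without a probe set of their own were not analysed here. Named genes were all globin probe sets, the 3 smallest p-values and the brightest gene of each list and the 5 closest profiles, with the exceptions stated. B and T cell lists are given by counts and medians. The members and lists were chosen with earlier results of these data known. Alternatives were a trended robust prior, no filter or a stricter one, array weights, median centring, cyclic loess, averaging of probe sets, the replicate number as a block, each array left out and, added after the data were seen, adult alpha globin as a covariate, list values without knockout replicate 2, counts without the filter and dim Hbb-bh1 control values set to the filter level. Figures were drawn with matplotlib 3.10.9.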

Additional observations from a re-analysis of the deposited data

How the results depend on the processing

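Under all alternatives that kept at least 2 arrays in each group, 0 globin probe sets passed limma's adjusted test. With the covariate, 7 had a limma unadjusted p under 0.05 (16.6% of all), and without the filter 3 (1.4% of all). The others of these alternatives had 2 to 5. Their shares over all probe sets were not computed, so these counts are not read as a result about the globins. Under all alternatives run, the Hbb-bh1 and Hba-x differences stayed positive: 4.62 (array weights) to 7.11 (covariate) and 2.78 (array weights) to 4.60. Without single arrays they ranged from 4.98 to 6.90 and from 3.33 to 4.60. The adult alpha difference ranged from -1.94 to -0.12 without single arrays and was -2.04 with array weights; the adult beta difference ranged from -1.40 to 0.11, was -1.76 with array weights, turned to 0.020 without knockout replicate 1 and to 0.19 with the covariate. The dim Hbb-y difference was -0.043 to 0.24. The red cell list median was 0.52 with the covariate and -0.55 to 0.86 without single arrays; that of globin factors was -0.11 to 0.039 without single arrays and -0.18 with the covariate. The array weights were 7.67, 0.20 and 1.03 for knockout replicates 1, 2 and 3, so values with them rest mostly on knockout replicate 1. Cause was not tested for these shifts.

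The groups share replicate numbers 1 and 2, but the labels name different animals. With the replicate block the differences were 6.33 for Hbb-bh1, 3.82 for Hba-x, -0.62 for adult alpha and -0.53 for adult beta globin, and no call changed; only knockouts have a replicate 3, so this block leaves that array out. No alternative gave a value for Ahsp. Values near 15.2 lie at the top of the arrays' range and values below 5.77 near background, which limits the size of both adult and embryonic differences.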
